A study of Mus musculus with 4 samples.

Results

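The genes described here are 9 genes by which tissue macrophages are commonly recognised. They are *C1qa*, *C1qb* and *C1qc*, which encode the chains of complement C1q, the receptor genes *Csf1r*, *Mrc1*, *Adgre1* and *Cd14*, and *Cd68* and *Lyz2*, which encode a lysosomal membrane protein and a lysozyme. They were taken by gene symbol from a matrix that lists 32285 genes, of which 19290 had at least 1 UMI, and all 9 were found once each. A UMI is the random tag that single-cell kits attach to each captured RNA molecule, so that molecules rather than reads are counted. Together the 9 genes held 55067 of the 125100595 UMIs in the matrix.

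Macrophages live in every gland as resident phagocytes. They depend on signals through CSF1R, the receptor for the growth factors CSF1 and IL-34, and they take up dying cells and microbes with receptors such as the mannose receptor CD206, encoded by *Mrc1*. C1q is the recognition part of the first complement component: it binds antibody on a surface or debris directly and then starts the classical pathway through the proteases C1r and C1s. Unlike most plasma complement proteins, which come chiefly from the liver, C1q is made largely by macrophages and dendritic cells. F4/80, encoded by *Adgre1*, is the classical mouse macrophage antigen, CD14 presents lipopolysaccharide to Toll-like receptor 4, and macrosialin, encoded by *Cd68*, sits in the membranes of lysosomes and endosomes.

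The cells came from submandibular glands (SMG) and sublingual glands (SLG) of untreated wild-type female C57BL/6N mice, 6 to 8 weeks old. The labels list 4 samples and name 2 mice, a number that the methods of the study give differently. One matrix was deposited with 1 barcode suffix for 15707 cells, so no cell could be traced to its sample, mouse or gland, and the matrix was treated as 1 sample with no test. The cut glands had been digested with several collagenases, hyaluronidase, dispase and pancreatin before the cells were caught, and no undigested sample was measured.

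Cells held a median of 2608 UMIs and 689 genes. The 10 most abundant transcripts, of acinar secretory products, took 75.5% of all UMIs. Scrublet, a caller of droplets with more than 1 cell, called 0 of the cells. At this many cells that result is read as a failure of the caller, so droplets of 2 cell types may remain. Clustering gave 24 clusters, of which the marker lists named 16 in 10 classes, and 8 clusters with 6919 cells or 44.1% of all were not named.

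Levels below are UMIs of a gene summed over the cells of a group per 10000 UMIs of that group, and the brackets hold exact 95% Poisson limits. Brackets after a share of cells hold exact 95% binomial (Clopper-Pearson) limits. Both cover counting error only, because cells of 1 matrix are not replicates. The 9 genes were left out of the genes used for clustering and out of all marker lists, although genes that vary along with them were not, so a difference between clusters is a description.

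*C1qa*, *C1qb* and *C1qc* lie side by side on chromosome 4, at chr4:136880129-136898803 of GRCm38, a stretch of 18675 bases (GENCODE M21). All 3 are read from the minus strand, with 3616 bases between *C1qb* and *C1qc* and 2851 between *C1qc* and *C1qa*. *Mrc1* is at chr2:14229392-14332057 on the plus strand, *Lyz2* at chr10:117277331-117282321 and *Cd68* at chr11:69664213-69666153, both on the minus strand, and *Adgre1* at chr17:57358691-57483527 on the plus strand. All 9 are protein-coding genes. The RefSeq promoter table (GRCm38.p6) matched 5 of the 9, *C1qb*, *C1qc*, *Mrc1*, *Cd68* and *Lyz2*.

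The bases before the start of 4 of these are shown, *C1qb* and *C1qc* because these neighbours kept near the same proportion in most groups, and *Mrc1* and *Lyz2* because they set one macrophage-like sub-cluster apart. Capitals mark 2 motifs. The first is GAGGAA, a core bound by the myeloid factor PU.1, which reads TTCCTC when it lies on the other strand. The second is TGCTGA, a part of the palindromic site of the MAF factors, which then reads TCAGCA. The letters of these 2 motifs overlap nowhere in the 4 stretches.
C1qb, chr4:136886201-136886350, minus strand: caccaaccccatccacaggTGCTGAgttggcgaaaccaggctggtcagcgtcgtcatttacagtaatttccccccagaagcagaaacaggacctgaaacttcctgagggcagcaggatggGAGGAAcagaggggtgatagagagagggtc
C1qc, chr4:136893066-136893164, minus strand: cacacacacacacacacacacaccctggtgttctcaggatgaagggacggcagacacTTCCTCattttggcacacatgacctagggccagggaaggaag
Mrc1, chr2:14229242-14229391, plus strand: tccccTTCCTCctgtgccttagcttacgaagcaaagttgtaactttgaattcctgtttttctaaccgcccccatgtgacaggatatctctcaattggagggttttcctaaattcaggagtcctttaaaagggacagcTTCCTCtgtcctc
Lyz2, chr10:117282322-117282471, minus strand: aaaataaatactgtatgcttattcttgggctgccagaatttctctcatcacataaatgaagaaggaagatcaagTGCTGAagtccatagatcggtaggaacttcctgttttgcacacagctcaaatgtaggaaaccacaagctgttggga

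The PU.1 core was found once before *C1qb*, once before *C1qc* and at 2 places before *Mrc1*, and the MAF half-site once before *C1qb* and once before *Lyz2*. Among 32851 promoters of the table, 14.5% held the PU.1 core and 10.1% the MAF half-site within 150 bases before the start, or 9.74% and 6.88% within 99 bases, the length shown for *C1qc*. The 150 bases before *Cd68* held neither. These matches describe letters only, and no binding was measured.

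The myeloid-like class held 1062 cells, 6.76% of all, in 3 clusters, named from general myeloid markers such as *Tyrobp*, *Fcer1g* and *Spi1*. It carried 81.7% of the UMIs of the 9 genes, from 73.9% of those of *Mrc1* to 83.0% of those of *C1qa*. In 10000 UMIs of these cells there were 118.3 (117.0 to 119.6) of C1q, the 3 genes summed. *Lyz2* stood at 24.9 (24.3 to 25.5), *Cd14* at 15.7 (15.2 to 16.2), *Csf1r* at 3.92 (3.69 to 4.17) and *Cd68* at 3.55 (3.33 to 3.78). *Adgre1* and *Mrc1* were the lowest, at 1.44 (1.30 to 1.59) and 0.486 (0.406 to 0.577).

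Every one of the 9 genes was highest in the myeloid-like class among the 10 named classes. All 9 were at least 4 times as high there as in all other named cells pooled, which 21.6% of the 13508 genes with at least 20 UMIs over both groups were. Of the 82909631 UMIs of that pool 62318207 lay in serous acinar-like cells, so a gene can pass this limit and still be higher in a smaller class. Against the next highest class the gap ran from 16.4-fold (5.48 to 80.4) for *Mrc1*, with 3 UMIs in fibroblast-like cells, to 115.8-fold (95.6 to 141.8) for *C1qb*, over endothelial-like cells, and for summed C1q it was 99.6-fold (83.3 to 120.2) over fibroblast-like cells. It was 52.0-fold (33.5 to 85.5) for *Csf1r* and 95.2-fold (36.9 to 351.1) for *Adgre1*, both over endothelial-like cells. For *Cd14* it was 47.2-fold (27.0 to 91.3) over basal or myoepithelial-like cells and for *Lyz2* 40.5-fold (31.6 to 52.9) over fibroblast-like cells.

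**Figure D1:**
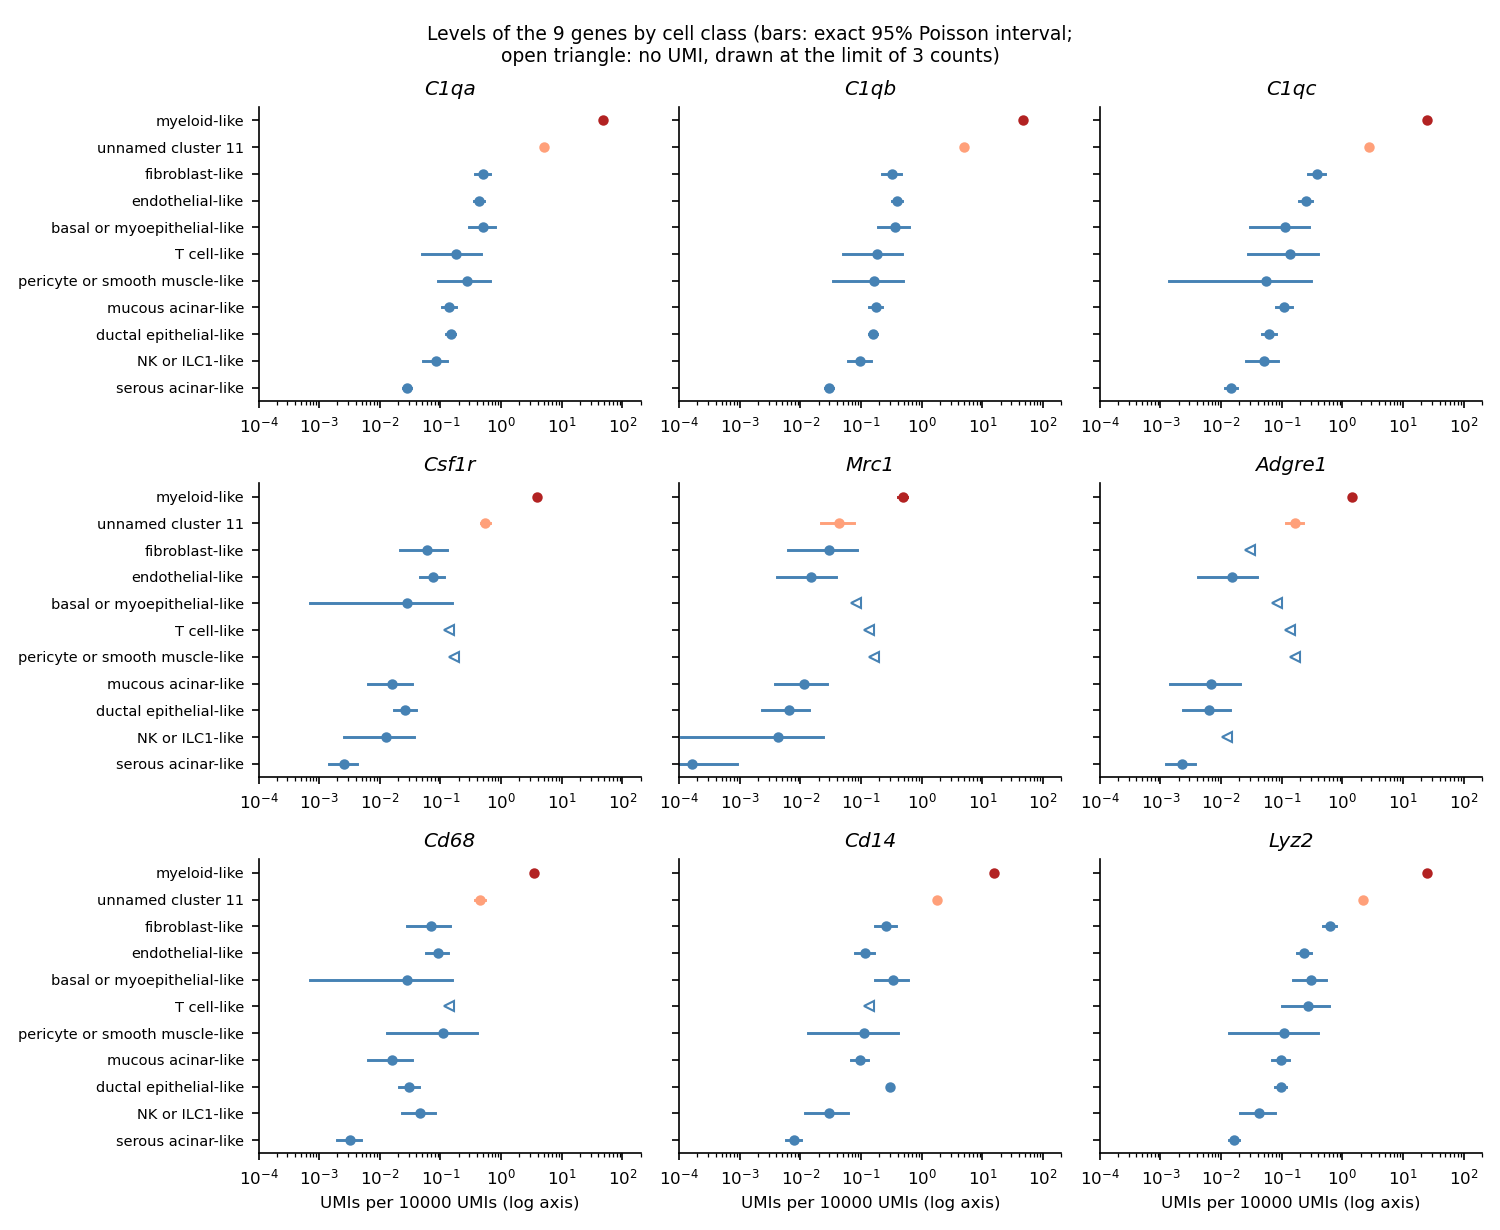
Level of each gene by cell class, in UMIs per 10000 UMIs on a log axis, with the exact Poisson 95% interval as a line and, for a gene without a UMI, an open triangle at the limit that 3 counts set; the interval of *Mrc1* in serous acinar-like cells runs past the left edge. All 9 genes are highest in myeloid-like cells (red), next in unnamed cluster 11 (light orange) among groups with a UMI. Within the other classes the C1q genes are lowest in serous acinar-like cells, where the 10 most abundant transcripts took 90.8% of the UMIs.

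Outside the myeloid-like class C1q was seen in many cells at a few UMIs. C1q stood at 1.19 (0.985 to 1.42) in fibroblast-like, 1.08 (0.957 to 1.21) in endothelial-like and 0.367 (0.330 to 0.408) in ductal epithelial-like cells. By this measure serous acinar-like cells were lowest, at 0.0720 (0.0655 to 0.0790). In lymphoid-like cells, the NK or ILC1-like and T cell-like cells pooled, which should not make C1q, the level was 0.253 (0.196 to 0.322). Of these 1232 lymphoid-like cells 3.81% (2.82 to 5.04) had a C1q UMI, and of the 2182 serous acinar-like cells 16.6% (15.1 to 18.2). With every cell thinned to 500 UMIs the shares were 1.30% and 0.642%, so the serous share was the lower of the pair at equal total depth. The 10 most abundant transcripts took 90.8% of the serous acinar-like UMIs and 16.5% of the lymphoid-like UMIs. Equal totals thus leave fewer UMIs for all other genes in serous acinar-like cells. Whether the serous share is lower without these transcripts was not tested. The median cell held 25863 UMIs among the serous acinar-like cells of cluster 2 and 1824 in the larger NK or ILC1-like cluster.

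Cells with many C1q UMIs were rare outside the myeloid-like class. Of the 7726 other named cells 6917 had no C1q UMI, 726 had 1 or 2, and 20 had at least 10. Within myeloid-like cells 916 of 1062, or 86.3%, had at least 10, and these held 99.5% of the class's C1q UMIs. In the few non-myeloid cells with 10 or more, single droplets weighed heavily: 1 of 97 T cell-like cells held 90.9% of that class's 11 C1q UMIs, and 1 of 59 basal or myoepithelial-like cells 68.6% of 35. Whether such droplets held a macrophage besides the named cell was not tested.

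The spread of *Cd14* over the other classes did not follow C1q in ductal cells. Per 100 C1q UMIs there were 12.6 (12.1 to 13.2) of *Cd14* in macrophage-like cells and 13.3 (12.8 to 13.7) in the whole myeloid-like class. In serous acinar-like cells the figure was 10.9 (7.95 to 14.7), in endothelial-like cells 10.8 (7.23 to 15.7) and in lymphoid-like cells 10.6 (4.10 to 23.1), intervals that all hold the macrophage value. In ductal epithelial-like cells it was 82.4 (70.2 to 96.7), since 286 *Cd14* UMIs stood beside 347 of C1q, and in mucous acinar-like cells 22.3 (15.5 to 31.4). It was also higher in basal or myoepithelial-like cells, at 34.3 (16.2 to 67.6), and in fibroblast-like cells, at 21.7 (13.6 to 33.3), on 12 and 26 *Cd14* UMIs.

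All 4 ductal clusters showed the raised *Cd14*, with a level from 0.206 (0.157 to 0.267) in cluster 4 to 0.419 (0.337 to 0.516) in cluster 7. *Cd14* was found in 214 of 2721 ductal epithelial-like cells, 7.86% of them, and 30 of those 214, or 14.0% (9.66 to 19.4), also had a C1q UMI. Of the ductal cells without *Cd14* 5.11% (4.28 to 6.04) had one, at a median depth of 2688 UMIs against 3922.5 in those with *Cd14*. Free RNA, estimated at 528.5 UMIs a droplet from 3 secretory transcripts in lymphoid-like cells and given the make-up of the whole matrix, would bring 439.1 C1q and 62.1 *Cd14* UMIs to the ductal cells, of which 347 and 286 were observed. The same estimate gave 198.8 C1q UMIs for the lymphoid-like cells, which had 66, so it runs high. The ductal level of *Cd14*, 0.303 (0.269 to 0.340), was still a small part of that in myeloid-like cells, but ductal cells are many and held 5.29% of all *Cd14* UMIs, against 0.908% of those of C1q.

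*Lyz2* kept a ratio to C1q near that of macrophage-like cells, 20.4 (19.7 to 21.1) per 100, in serous acinar-like cells with 22.7 (18.1 to 28.2) and in endothelial-like cells with 21.7 (16.2 to 28.6). Fibroblast-like cells had more, 51.7 (37.4 to 70.8), but 1 cell held 50% of their 62 *Lyz2* UMIs and 3 cells held 65.0% of their 120 C1q UMIs. Ductal epithelial-like cells had 26.2 (20.6 to 33.1). The ratio was also higher in unnamed clusters 0, 1 and 8, at 30.9 (27.1 to 35.2), 45.1 (38.4 to 52.8) and 36.4 (25.9 to 50.3). It was lower in unnamed clusters 11 and 16, at 16.8 (15.3 to 18.4) and 9.35 (4.86 to 16.5). *Adgre1* had no UMI in 1232 lymphoid-like cells, which allows a level of up to 0.0115, nor in fibroblast-like cells, which allows up to 0.0297. *Csf1r* had 3 UMIs in lymphoid-like cells and 20 in endothelial-like cells.

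Unnamed cluster 11, of 462 cells, was led by macrophage genes such as *Csf1r* itself and *Cybb* but held a median of 448 genes, and 75.3% of its UMIs were on the 10 most abundant secretory transcripts, against 10.1% in macrophage-like cells. It carried 8.31% of the UMIs of the 9 genes. C1q stood at 12.8 (12.4 to 13.3) there, *Lyz2* at 2.16 (1.98 to 2.34), *Cd14* at 1.79 (1.63 to 1.96) and *Csf1r* at 0.546 (0.459 to 0.644). Each of the 9 genes was between 9.12-fold (*Csf1r*) and 18.5-fold (*Mrc1*) lower than in macrophage-like cells. Of its cells 81.6% (77.8 to 85.0) had a C1q UMI and 96, or 20.8%, had at least 10. The part of free or joined acinar RNA in these droplets was not tested.

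Myeloid-like cells fell into 9 sub-clusters when they were clustered again. From markers that hold none of the 9 genes, sub-clusters 0, 2, 4 and 7 with 611 cells were called macrophage-like, on markers that include *Apoe* and *Ms4a7*. The other 451 cells, in sub-clusters 1, 3, 5, 6 and 8, were not named, though sub-cluster 1 also had 5 of the 18 macrophage markers. Sub-clusters 1 and 5 were led by acinar and duct genes (*Bpifa2* and *Dcpp1*, *Smgc* and *Klk1b4*), 6 by cell cycle genes, 8 by NK cell genes, and 3 by genes of dendritic cells and monocytes (*Fscn1*, *Ccr7*, *Fn1*, *Ccl17*, *Ear2*).

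In the macrophage-like cells C1q made up 154.7 (152.6 to 156.8) of every 10000 UMIs. *C1qa* stood at 63.5 (62.2 to 64.9), *C1qb* at 58.7 (57.4 to 60.0) and *C1qc* at 32.4 (31.5 to 33.4). All 611 cells had a C1q UMI (99.4 to 100%), and 607 had UMIs of all 3 genes. The median cell carried 32 C1q UMIs, with quartiles over the cells of 123.9, 150.2 and 183.4 per 10000. Thinned to 500 UMIs a cell, every macrophage-like cell still had a C1q UMI.

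The macrophage-like level of C1q was 0.93 (0.90 to 0.97) higher on the log2 scale than that of the other myeloid-like cells, which is 1.91-fold. It depends on which cells are named, and was 1.85 at resolution 0.3, 1.43 without the highest Scrublet scores (Scrublet marks likely doublets) and 2.71 with clusters of any number of genes named. In the clustering used here 4 of the 5 unnamed sub-clusters were also rich in C1q, from 67.7 (62.9 to 72.7) in sub-cluster 8 to 131.7 (128.0 to 135.5) in sub-cluster 1. Sub-cluster 3, of 120 cells, stood far below them at 10.9 (9.79 to 12.0). Macrophage-like cells were 3.83 (3.69 to 3.98) above it on the log2 scale, 14.2-fold. At resolution 0.3 the sub-cluster highest in *Ccr7* held 180 cells and its log2 ratio to the macrophage-like cells outside it was -1.86, in place of -3.83.

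Among the macrophage-like sub-clusters the order for C1q was 7, 0, 2 and 4, with 164.2 (156.4 to 172.4), 158.8 (156.0 to 161.6), 148.1 (143.8 to 152.5) and 141.0 (135.3 to 146.9). The intervals of 7 and 0 overlap, and so do those of 2 and 4 and of 4 and the unnamed sub-cluster 1. Sub-cluster 7 was led by interferon-induced genes (*Ifit3*, *Rsad2*), sub-cluster 0 by *Cxcl1*, *Cxcl14*, *Mmp12* and *Tnf*, and sub-cluster 2 by heat shock genes (*Hspa1b*, *Dnajb1*). Sub-cluster 4 had 0.888 (0.849 to 0.929) times the C1q level of sub-cluster 0, and sub-cluster 7 had 1.03 (0.982 to 1.09) times. The total behind these levels includes the 10 most abundant secretory transcripts. Those transcripts took 18.8% of the UMIs in sub-cluster 4, 11.4% in 2, 10.4% in 7 and 7.83% in 0. A larger share lowers the level of every other gene. Whether the order and the 0.888 step hold without these transcripts was not tested.

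**Figure D2:**
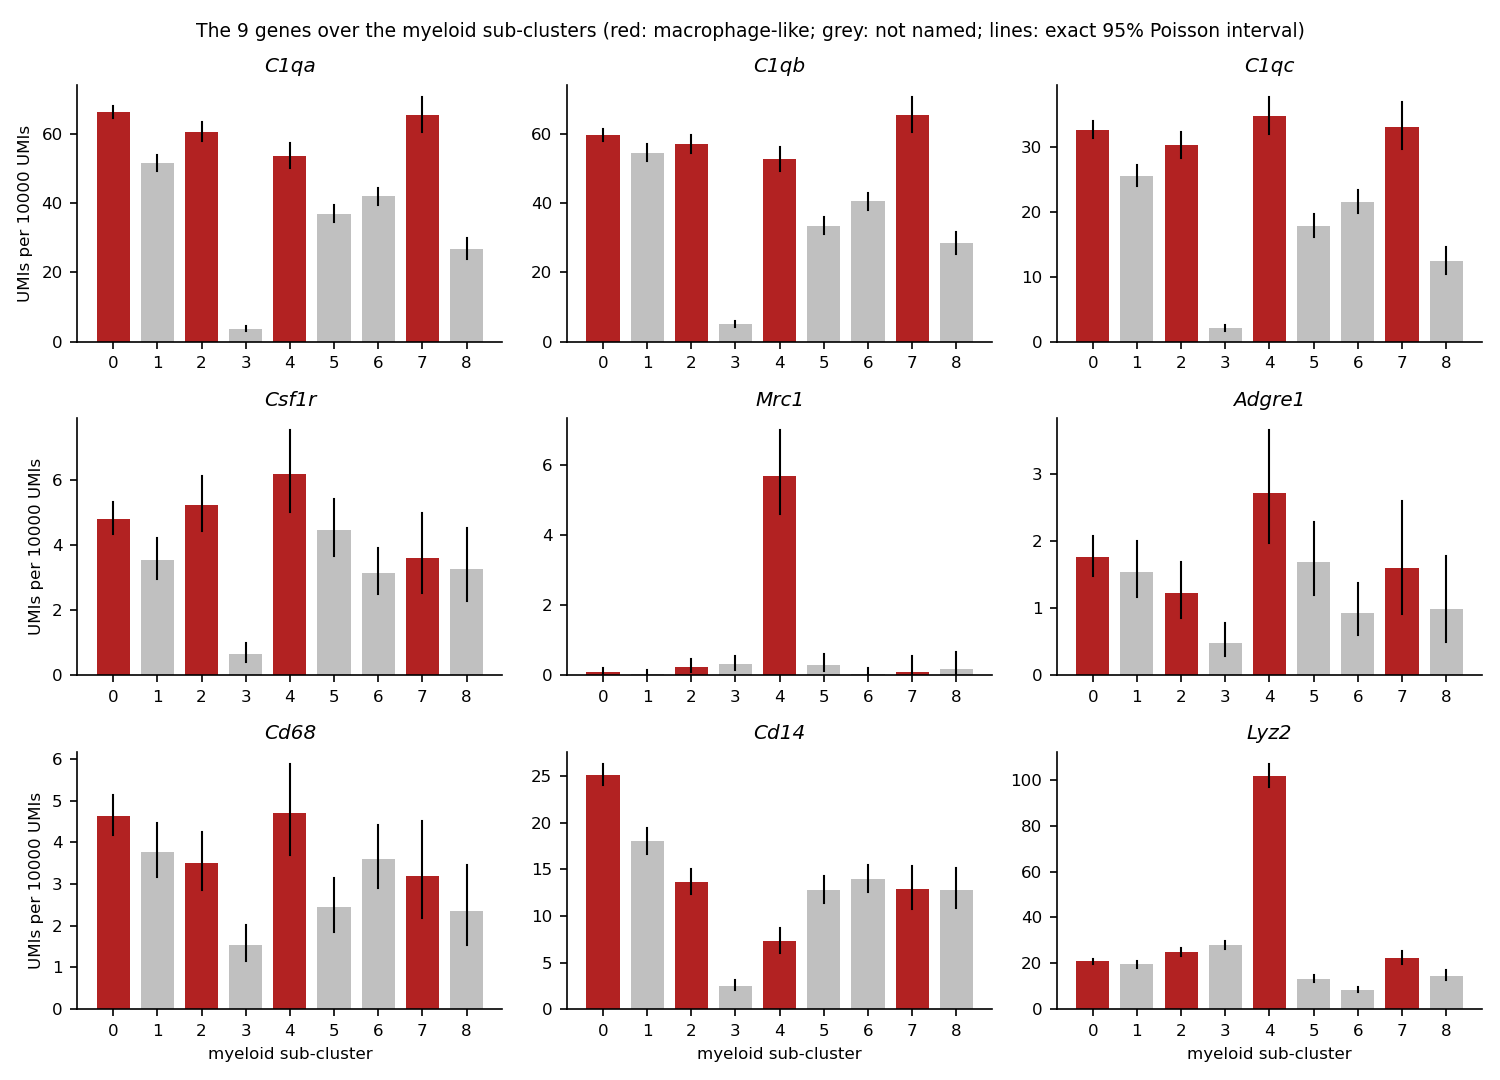
Level of the 9 genes in the 9 myeloid sub-clusters, in UMIs per 10000 UMIs, with the exact Poisson 95% interval as a line; red bars are macrophage-like sub-clusters and grey bars are not named. The C1q genes are lowest in sub-cluster 3, *Mrc1* and *Lyz2* peak in sub-cluster 4 at 5.68 and 101.9, and *Cd14* is highest in sub-cluster 0 at 25.2.

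Low C1q in sub-cluster 3 came from a split among its cells. Of the 120 cells 91 had no C1q UMI, 9 had 1 or 2, 9 had 3 to 9, and 11 had at least 10. These 11 held 86.3% of the 380 C1q UMIs, and 1 cell alone held 20.3%. The cycling sub-cluster 6 showed the same split the other way round, with 13 of 65 cells at 0 and 51 with at least 10. Across all myeloid-like cells 111 had no C1q UMI, although their median depth, 2967 UMIs, was above the 2154 of the 951 cells that had one.

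Cells without C1q also rarely had the receptors. *Csf1r* was found in 9.01% (4.41 to 15.9) of the 111 cells and in 63.7% (60.6 to 66.8) of the 951, *Adgre1* in 4.50% (1.48 to 10.2) and 31.5% (28.6 to 34.6), and *Cd14* in 18.9% (12.1 to 27.4) and 83.8% (81.3 to 86.1). *Mrc1*, at 2.70% (0.561 to 7.70) and 8.31% (6.63 to 10.2), had overlapping intervals. Among the cells without C1q the lysosomal genes were found more often than the receptors, though the intervals of *Cd68* and *Cd14* overlap there. Both lysosomal genes were still rarer there than in the cells with C1q. *Cd68* was found in 31.5% (23.0 to 41.0) and 56.5% (53.2 to 59.7), and *Lyz2* in 47.7% (38.2 to 57.4) and 78.5% (75.8 to 81.1).

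**Figure D3:**
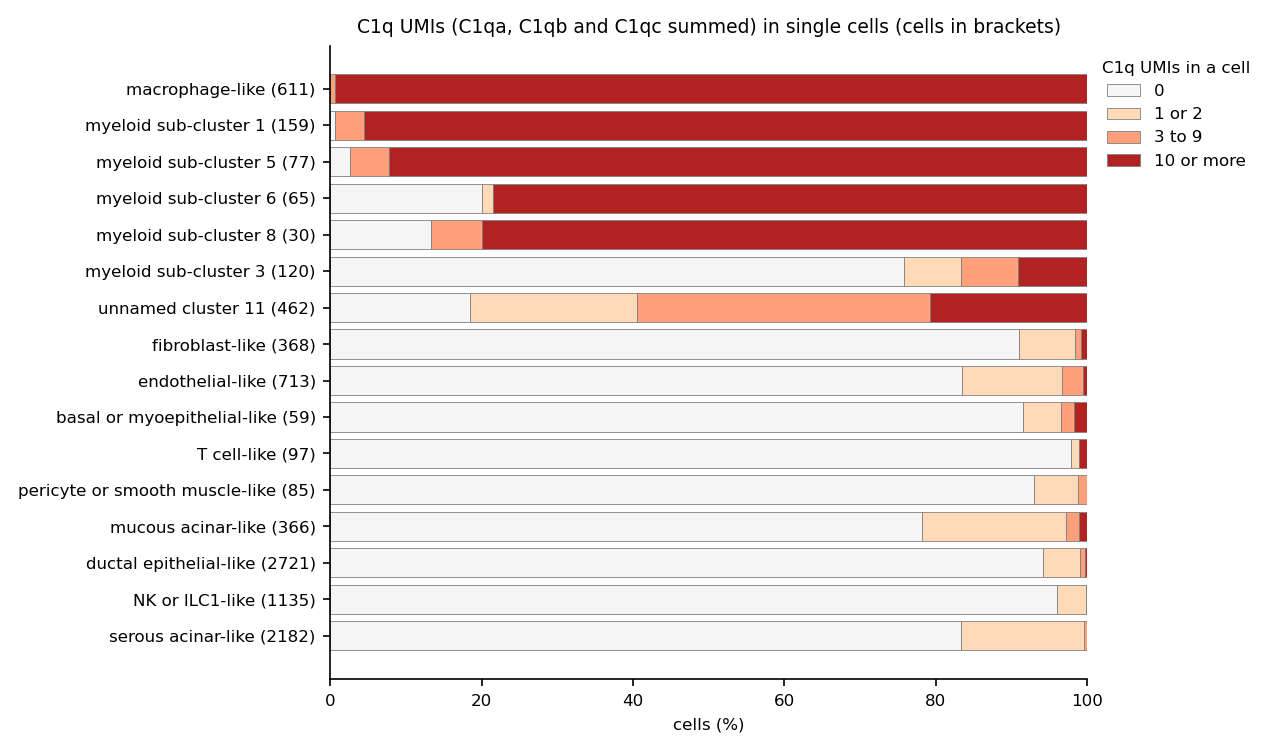
Share of cells with 0, 1 or 2, 3 to 9, or at least 10 UMIs of C1q (*C1qa*, *C1qb* and *C1qc* summed), by group, with the number of cells in brackets. Macrophage-like cells are almost all in the highest bin (607 of 611), sub-cluster 3 is mostly at 0 (91 of 120) and unnamed cluster 11 is spread over all bins.

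The 3 C1q genes kept nearly the same proportions in most groups. *C1qa*, *C1qb* and *C1qc* made up 41.1% (40.4 to 41.7), 38.0% (37.3 to 38.6) and 20.97% (20.4 to 21.5) of the C1q UMIs in macrophage-like cells. The shares in unnamed cluster 11 were 40.4% (38.7 to 42.1), 38.3% (36.6 to 39.95) and 21.3% (19.9 to 22.7), intervals that hold the macrophage values. Since 1 UMI stands for 1 molecule caught at its 3′ end, these shares do not depend on transcript length, though they can depend on how well each 3′ end is caught.

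A few groups deviated by more than counting error. In sub-cluster 4 *C1qc* took 24.7% (22.9 to 26.5) and *C1qa* 38.0% (36.0 to 40.05), and in the acinar-led sub-cluster 1 *C1qb* took 41.4% (40.01 to 42.8). In sub-cluster 3 *C1qb* led with 46.3% (41.2 to 51.5) against 34.7% (30.0 to 39.8) for *C1qa*, on 380 UMIs of which most came from 11 cells. Fibroblast-like cells had 31.7% (23.5 to 40.8) *C1qc* and 26.7% (19.0 to 35.5) *C1qb* on 120 UMIs, of which 26.7% lay in 1 cell. No 90-base window from the last 500 bases of these 3 genes' transcripts was shared with another gene.

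**Figure D4:**
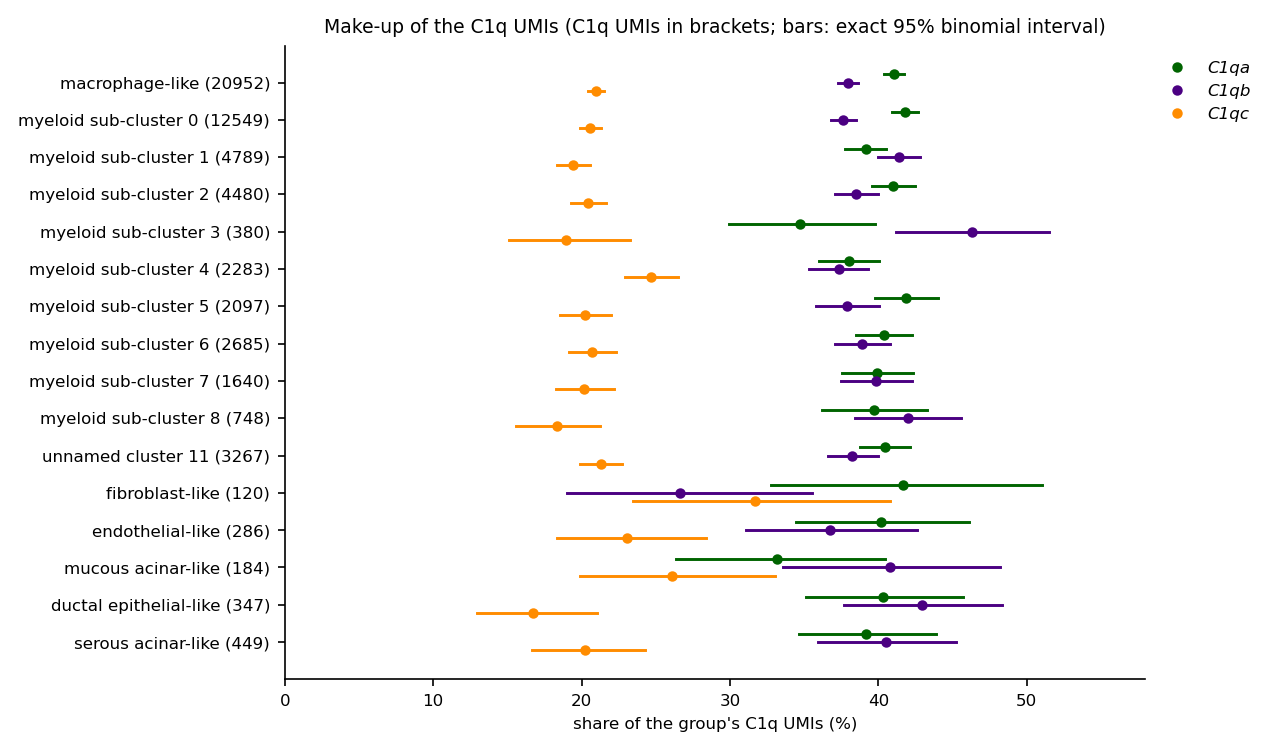
Share of *C1qa* (green), *C1qb* (purple) and *C1qc* (orange) among the C1q UMIs of each group with at least 100 C1q UMIs, in percent, with the exact binomial 95% interval as a line and the C1q UMIs of the group in brackets. *C1qc* is the smallest share in every group but the fibroblast-like cells, and sub-cluster 3 is the group where the intervals of *C1qb* (46.3%) and *C1qa* (34.7%) do not overlap with *C1qb* ahead.

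*Csf1r*, a receptor gene which like *Cd14* lies on chromosome 18, was present at low counts in macrophage-like cells, at 4.98 (4.61 to 5.37), with a UMI in 392 or 64.2% of them and at most 6 in a cell. Its order over the sub-clusters began with 4 at 6.18 (5.03 to 7.51), 2 at 5.22 (4.44 to 6.10) and 0 at 4.81 (4.34 to 5.32), whose intervals overlap. Sub-cluster 3 was last with 0.657 (0.417 to 0.986), and macrophage-like cells were 2.92 (2.32 to 3.59) above it on the log2 scale, or 7.57-fold. No other neighbours in that order were separated by their intervals.

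*Adgre1*, the F4/80 gene, had a level of 1.74 (1.53 to 1.98) and a UMI in 30.0% of macrophage-like cells. It was highest in sub-cluster 4, at 2.72 (1.97 to 3.65), though this interval overlaps that of sub-cluster 0, and lowest in sub-cluster 3, at 0.486 (0.283 to 0.778), a 3.59-fold (2.19 to 6.26) step from the macrophage-like cells. Sub-clusters 0, 1, 2, 5 and 7 lay between 1.22 and 1.76 with overlapping intervals. No *Adgre1* UMI was found in 70.0% of the macrophage-like cells, and F4/80 protein was not measured.

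*Mrc1* behaved unlike the other 8 genes. In macrophage-like cells it was at 0.797 (0.654 to 0.963), and 92 of the 108 UMIs lay in sub-cluster 4, which holds 78 of the 611 cells. There its level was 5.68 (4.58 to 6.97), with a UMI in 62.8% of cells, against 0.101 (0.0437 to 0.199) in sub-cluster 0 with a UMI in 2.33%. The ratio of the pair was 56.1-fold (27.3 to 133.9).

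Sub-cluster 4 was also led by *Folr2*, *Cd163*, *Cbr2*, *Ccl24* and *Ccl8*. Of the genes given here *Folr2*, *Cd163*, *Cbr2* and *Stab1* are among the macrophage markers by which it was named. *Folr2* encodes a folate receptor and *Cd163* the haemoglobin scavenger receptor, both known from macrophages that lie along vessels and in connective tissue. *Cd163* stood at 1.85 (1.25 to 2.65) in sub-cluster 4, with 30 of the 41 *Cd163* UMIs of the matrix, and *Stab1*, another scavenger receptor, at 2.16 (1.51 to 3.01). The macrophage-like cells were also split by *Folr2*, *Cd163* and *Cbr2*, after the values were seen. The 43 cells with a UMI of any of these had an *Mrc1* level of 6.92 (5.29 to 8.89), and the other 568 of 0.371 (0.273 to 0.493). Of the 43 cells 40 belonged to sub-cluster 4, so the split restates the contrast of the sub-clusters and is no separate support.

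*Cd14* ran the other way. Its level was 25.2 (24.1 to 26.3) in sub-cluster 0, with a UMI in 93.3% of cells, and 7.29 (6.03 to 8.73) in sub-cluster 4, with a UMI in 66.7%. The log2 ratio of 4 to 0 was -1.79 (-2.07 to -1.52). Sub-clusters 2 and 7 lay between with 13.6 and 12.9 (10.8 to 15.3), which do not differ beyond their intervals, and sub-cluster 3 was lowest with 2.51 (2.02 to 3.10). The leading genes of sub-cluster 0 included *Cxcl1* and *Tnf*, which macrophages induce on activation and which tissue digestion can also raise. The part of the digestion in the *Cd14* level was not tested.

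*Cd68* was more even over the sub-clusters than *Lyz2*. It was at 4.29 (3.95 to 4.65) in macrophage-like cells, at 4.64 (4.18 to 5.14) in sub-cluster 0 and at 4.69 (3.70 to 5.88) in sub-cluster 4, a log2 ratio of 0.02 (-0.36 to 0.38). Sub-cluster 3 kept 1.54 (1.16 to 2.01), 2.78-fold (2.10 to 3.75) less than the macrophage-like cells. Neighbours in the order of the 9 sub-clusters all had overlapping intervals. Against sub-cluster 0 the level was still lower in sub-clusters 2 and 7, at 0.754 (0.602 to 0.939) and 0.690 (0.465 to 0.991) times.

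*Lyz2*, the lysozyme gene expressed across myeloid cells, differed between the 4 macrophage-like sub-clusters by more than any other of the 9 genes except *Mrc1*. Its level was 101.9 (97.0 to 106.9) in sub-cluster 4, where every cell had a UMI, and 20.8 (19.8 to 21.8), 24.8 (23.1 to 26.7) and 22.4 (19.6 to 25.6) in sub-clusters 0, 2 and 7. The ratio of sub-cluster 4 to sub-cluster 0 was 4.90-fold (4.57 to 5.25). The median macrophage-like cell stood at 14.0 per 10000, the upper quartile at 36.3 and the highest cell at 361.5. Over the macrophage-like cells 19.6% had no *Lyz2* UMI.

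Between sub-clusters 4 and 0, *Mrc1* and *Lyz2* were the members at least 2 times as high in 4, as 11.2% of 3691 genes were, and *Cd14* the member at least 2 times as high in 0, as 13.0% were. C1q differed little between the pair, with a log2 ratio of -0.17 (-0.24 to -0.11). *Csf1r*, with 0.36 (0.03 to 0.68), and *Adgre1*, with 0.63 (0.10 to 1.13), were higher in 4 by less than 2 times. The *Adgre1* interval reaches 2.18-fold. The 10 most abundant secretory transcripts took 18.8% of the UMIs in 4 and 7.83% in 0, which lowers all other levels more in 4. These ratios without those transcripts were not tested. *Cd68* was level between the pair, as given above.

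In sub-cluster 3 *Lyz2* was the exception. Of the 9 genes 8 were at least 2 times as high in macrophage-like cells as in sub-cluster 3, which 13.9% of 5418 genes were, and none of the 9 was at least 2 times as high in sub-cluster 3, as 12.0% of genes were. For *Mrc1* this rests on sub-cluster 4: macrophage-like sub-clusters 0, 2 and 7, of which 2 was highest at 0.231 (0.0930 to 0.477), were below the 0.314 (0.157 to 0.562) of sub-cluster 3, with overlapping intervals. *Lyz2* stood at 28.0 (26.3 to 29.8) there and at 31.5 (30.6 to 32.5) in macrophage-like cells, a 1.13-fold (1.05 to 1.21) step that also rests on sub-cluster 4, since sub-clusters 0, 2 and 7 had less *Lyz2* than sub-cluster 3, apart from an overlap of the intervals of 2 and 3. The log2 ratio of the sub-cluster highest in *Ccr7* to the macrophage-like cells outside it, -0.17 here, turned to 0.0389 and 0.0944 in 2 of 8 other clusterings and cell filters. A UMI was found in 55.0% of the cells, and the highest cell held 460.2 per 10000.

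The *Lyz2* UMIs of sub-cluster 3 lay mostly with monocyte markers, in a split that was chosen after the values were seen. The 44 cells with a UMI of *Ear2*, *Fn1*, *Ly6c2* or *Plac8*, and none of *Ccr7* or *Fscn1*, had a *Lyz2* level of 62.6 (58.4 to 67.1). The 32 further cells with a UMI of the dendritic cell genes *Cd209a*, *Ccl17* or *Clec10a* had 11.2 (9.10 to 13.5). In the 26 cells with *Ccr7* or *Fscn1*, genes of dendritic cells that migrate to lymph nodes, it was 1.53 (0.792 to 2.68). C1q followed the same order over these 3 groups, with 19.1 (16.8 to 21.6), 4.70 (3.40 to 6.33) and 2.30 (1.36 to 3.64). The 18 cells with none of these UMIs had more C1q than *Lyz2*, at 13.95 (10.8 to 17.7) and 8.62 (6.21 to 11.6).

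*Lyz1*, the neighbouring lysozyme gene that is best known from the gut, was also read in sub-cluster 3, at 3.20 (2.63 to 3.85) against 0.0812 (0.0405 to 0.145) in macrophage-like cells. The genes share part of their 3′ ends: 15 of the 411 windows of 90 bases in the last 500 bases of *Lyz2* also occur in *Lyz1*. Reads from those windows cannot be told apart, so small counts of *Lyz1* beside high *Lyz2* are uncertain. Sub-cluster 4 had 3.64-fold (3.36 to 3.94) more *Lyz2* than sub-cluster 3 and a *Lyz1* level of 0.618 (0.296 to 1.14). The part of *Lyz2* reads in the *Lyz1* counts was not tested.

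Other cell types' markers moved with some of these groups. The 10 serous acinar markers summed to 103.5 per 10000 in sub-cluster 1 and to 27.7 in sub-cluster 0, and the 17 ductal markers to 103.4 in sub-cluster 5 and to 7.7 in sub-cluster 0. NK or ILC1 markers summed to 30.8 in sub-cluster 8 and to at most 1.2 in the other 8. In sub-cluster 4 serous acinar markers reached 75.6 and ductal markers 14.3. Fibroblast markers ranged from 0.9 to 3.4 over all 9. B cell and plasma cell markers summed to 82.7 in sub-cluster 0 and to at most 2.2 in the others, because 1 cell of sub-cluster 0 held 5069 of its 5074 *Igkc* UMIs. Without that cell the *Cd14* level of sub-cluster 0 was 25.5 instead of 25.2 and the C1q level 160.4 instead of 158.8. The part of these transcripts in the members' levels was not tested.

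Many of the other complement genes were highest in fibroblast-like cells. Of 38 in the list 37 are in the matrix and 25 had at least 20 UMIs over the myeloid-like and other named cells. Of these 25, 14 were highest in fibroblast-like cells, as 11.2% of all genes tested were, and 5 in myeloid-like cells, as 8.11% were. Of the same 25, 9 or 36.0% were at least 4 times as high in myeloid-like cells as in the other named cells together, against 21.6% of all genes. Their median log2 ratio of myeloid-like to other named cells was 1.33, and over all genes tested it was 1.02.

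The proteases that C1q activates were read in fibroblast-like cells. *C1ra* was at 2.33 (2.04 to 2.64) and *C1s1* at 4.51 (4.10 to 4.94) there, and each had 1 UMI in all 1062 myeloid-like cells. *Serping1*, the inhibitor of both, was at 6.07 (5.60 to 6.57) in fibroblast-like cells and also had 1 UMI in the myeloid-like class. The recognition chains and the proteases of the first component were thus read mostly in different classes of cells.

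Further along the cascade *C3*, *C2* and *Cfb* were also highest in fibroblast-like cells. *C3*, the central component, stood at 3.76 (3.39 to 4.16) in fibroblast-like and 0.0636 (0.0370 to 0.102) in myeloid-like cells, and *C2* and *Cfb* at 0.852 (0.681 to 1.05) and 0.584 (0.445 to 0.754) in fibroblast-like cells. *C4b*, which encodes the C4 that C1s cleaves, was at 0.129 (0.0685 to 0.220) in fibroblast-like cells but at 0.618 (0.296 to 1.14) in sub-cluster 4, with 10 of the 11 UMIs of the myeloid-like class. *Cfp*, which encodes properdin, was highest in the myeloid-like class, at 0.359 (0.291 to 0.438), and within it at 1.66 (1.26 to 2.14) in the C1q-poor sub-cluster 3.

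The receptors of complement fragments lay with the C1q genes. *C3ar1* was at 2.13 (1.96 to 2.32) and *C5ar1* at 1.26 (1.13 to 1.41) in myeloid-like cells, and sub-cluster 3 was low in both, at 0.143 (0.0464 to 0.333) and 0.114 (0.0311 to 0.293). The integrin chains *Itgax* and *Itgb2*, which make a receptor for a C3 fragment, were highest in NK or ILC1-like cells, at 1.77 (1.61 to 1.95) and 1.06 (0.934 to 1.20). *Cd93*, a surface lectin once named a C1q receptor, was at 1.20 (1.07 to 1.34) in endothelial-like cells and, within the myeloid-like class, at 1.30 (0.803 to 1.98) in sub-cluster 4 and 0.0127 in sub-cluster 0. *Cfd*, *Vsig4*, *C6*, *C7*, *C1rb* and *C4bp* had no UMI in any cell.

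**Figure D5:**
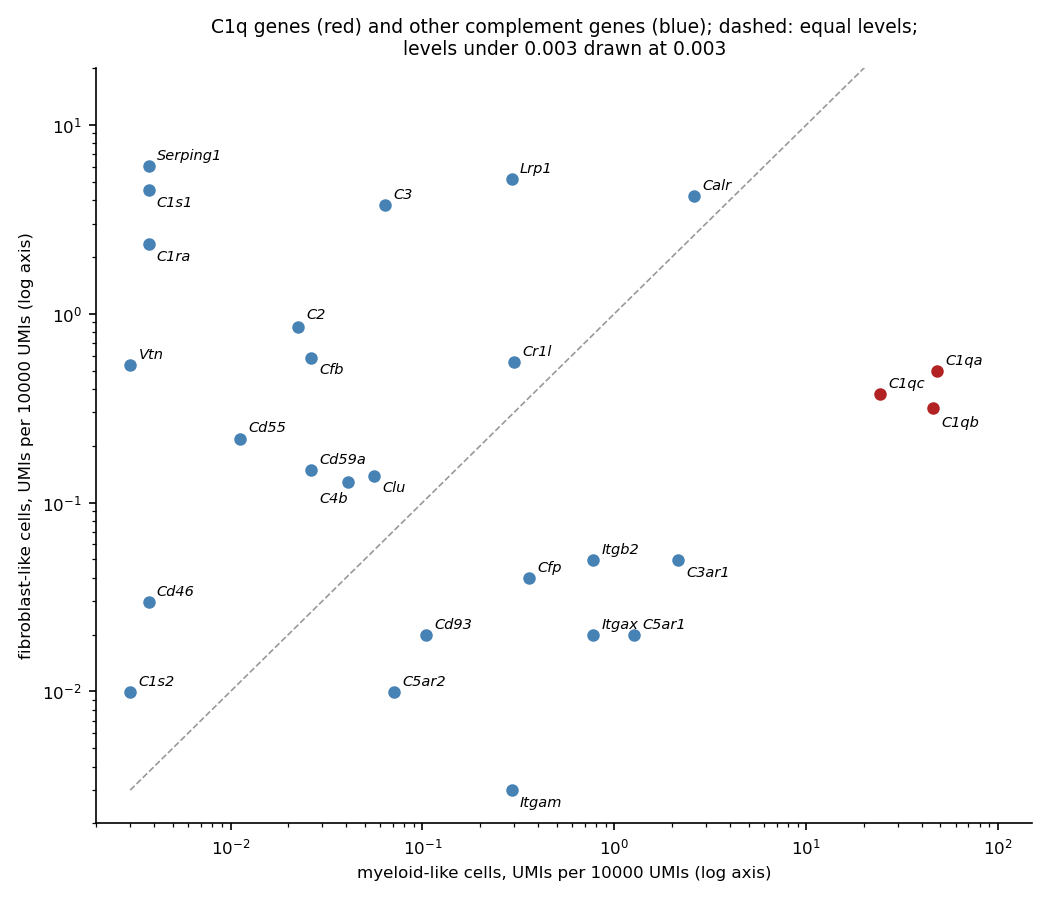
Level of the 3 C1q genes (red) and of 24 of the 25 other complement genes (blue) in myeloid-like cells on the horizontal axis and in fibroblast-like cells on the vertical axis, in UMIs per 10000 UMIs on log axes; the dashed line marks equal levels and levels under 0.003 are drawn at 0.003. *C1ra*, *C1s1* and *Serping1* lie far to the upper left, and the C1q genes, *C3ar1* and *C5ar1* to the lower right.

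The ligands of CSF1R were found outside the cells that carry the receptor. *Csf1* was highest in basal or myoepithelial-like cells, at 0.721 (0.471 to 1.06), with 0.406 (0.291 to 0.551) in fibroblast-like and 0.0336 (0.0154 to 0.0639) in myeloid-like cells. *Il34* was highest in pericyte or smooth muscle-like cells, at 0.661 (0.342 to 1.16), on 12 UMIs. Of the 7 genes of this list 4 were at least 4 times as high in myeloid-like cells, *Csf2ra*, *Csf2rb*, *Csf3r* and *Spi1*. Of all genes tested 21.6% were, and *Spi1* helped to name the class. *Spi1*, which encodes PU.1 and is itself among the general myeloid markers, was at 4.39 (4.05 to 4.76) in macrophage-like cells and 3.69 (3.08 to 4.38) in sub-cluster 3, whereas *Csf2rb* was higher in sub-cluster 3, at 1.46 (1.08 to 1.92) against 0.199 (0.131 to 0.290).

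Among the partners of CD14, *Tlr4* was sparse everywhere, with 11 UMIs in myeloid-like cells and a level of 0.0411 (0.0205 to 0.0736). *Tlr2*, which also works with CD14, was at 2.62 (2.43 to 2.83) in myeloid-like cells, and *Ly96*, the TLR4 co-receptor, at 0.295 (0.234 to 0.368). Of the 6 genes 3 passed the 4-fold limit, *Ly96*, *Tlr2* and *Cd180*, as 21.6% of all genes tested did. *Lbp*, whose product brings lipopolysaccharide to CD14, was at 0.307 (0.209 to 0.436) in fibroblast-like cells and had 1 UMI in myeloid-like cells. As with *Cd14*, *Tlr2* was lower in sub-cluster 4, at 1.17 (0.706 to 1.83), than in macrophage-like cells as a whole, at 3.33 (3.03 to 3.65).

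Of the scavenging receptors 7 of 10 could be tested and 4 passed, *Cd163*, *Msr1*, *Cd36* and *Stab1*, as 21.6% of all genes tested did. *Cd36* was nevertheless level between myeloid-like cells, at 1.03 (0.914 to 1.16), and endothelial-like cells, at 0.992 (0.875 to 1.12). *Cd163* was highest in pericyte or smooth muscle-like cells, at 0.165 (0.0341 to 0.483) on 3 UMIs, with 0.116 (0.0788 to 0.165) in myeloid-like cells. *Mrc2*, the relative of *Mrc1*, was at 1.01 (0.824 to 1.23) in fibroblast-like cells and had no UMI in myeloid-like cells, which allows up to 0.0112. *Marco* had no UMI in any cell. Of the adhesion receptor and lysosome relatives 3 of the 4 tested passed, *Lamp1*, *Lamp2* and *Lyz1*, against the same 21.6%. *Adgre5* was not among them: it was highest in NK or ILC1-like cells at 0.784 (0.676 to 0.905). *Lamp1*, which all cells use, was at 3.63 (3.41 to 3.87) in myeloid-like and 3.49 (3.13 to 3.87) in fibroblast-like cells. *Lamp2* was higher in fibroblast-like cells, at 2.20 (1.92 to 2.51), than in myeloid-like cells, at 1.53 (1.39 to 1.69).

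Likeness of pattern was measured as Pearson's r of log2(level + 0.1) over the 24 clusters, which all come from 1 matrix and differ in depth, among 9582 genes with at least 200 UMIs. The genes most like C1q were *H2-Eb1* (r = 0.987), *Cd83* (0.987) and *H2-Aa* (0.986). For *Csf1r* they were *Ly86*, *Mpeg1* and *C3ar1* (0.994 to 0.995), for *Adgre1* *P2ry6* and *Fcgr1* (both 0.996), and for *Cd68* *Cybb*, *Ly86* and *Slamf9* (0.979 to 0.987). *Cd14* was most like *Cx3cr1*, *Slamf9* and *Zmynd15* (0.956 to 0.960), and *Lyz2* most like *H2-Aa*, *H2-Eb1* and *H2-Ab1* (0.964 to 0.976). *Mrc1* was most like *Retnla* (0.956), *Mgl2* (0.898) and *Fcrls* (0.865).

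Between the members the same measure ran from 0.494 for *Mrc1* and *Cd14* to 0.988 for *Csf1r* and *Adgre1*. All 6 values with *Mrc1* lay between 0.494 and 0.721, the highest with *Lyz2*, and all others between 0.879 and 0.988. Only 3 of the 24 clusters were myeloid-like, so these values rest largely on the contrast of a few clusters with the rest.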

How the data were processed

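Single-cell libraries (10x Genomics 3′ chemistry) of 4 samples in 1 group were deposited as 1 matrix of raw UMI counts per gene and cell, which the authors made with Cell Ranger 6.0.1 on mm10 per the submitters' processing notes (Seurat 4.1.1 is also named there). Its single barcode suffix maps no cell to a sample, so it was 1 sample and no test, p-value or replicate error could be had. Intervals cover counting error only. Every cell was kept (at least 1374 UMIs each, and 0 columns of other samples).

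Counts were log-normalised and clustered with Seurat 5.3.0 in R 4.3.3 (2000 variable genes without the 9 described, 20 principal components, resolution 0.5), and the myeloid-like cells were clustered again in the same way. A cluster took the name of the list with most markers that were higher than in the rest and found in at least 25% of its cells, given at least 3 of them and, among all cells, a median of 500 genes. It stayed unnamed where more of its 10 leading genes by fold belonged to another list. Levels, shares (also thinned to 500 UMIs a cell) and ratios were computed in Python 3.11.15 with numpy 2.4.6, scipy 1.17.1 and scanpy 1.11.5, which also ran Scrublet, and the intervals were tested on simulated data. A ratio is called at 4-fold between classes and at 2-fold within the myeloid-like class, with at least 20 UMIs over both groups. Gene starts of the promoter stretches are those of RefSeq on GRCm38.p6.

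The text names the 9 genes, genes from a list of 66 others of the same pathways, the 3 genes most like each member, and the leading genes of the sub-clusters; others serve as markers, and a few of these genes are not reported here. The 9 genes and all lists were chosen with earlier results of these data known, and the splits of sub-cluster 3 and of the macrophage-like cells, the removal of 1 plasma cell droplet and the ratios followed over sub-clusters were chosen after seeing the data. Alternatives were other resolutions, numbers of components, cell filters, naming rules and scalings, and a removal of estimated free RNA.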

Additional observations from a re-analysis of the deposited data

How the results depend on the processing

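The share of macrophage-like cells with a C1q UMI was 99.5 to 100% under the 8 clusterings and cell filters and with cells thinned to 500 or 1000 UMIs. The C1q level of macrophage-like cells, 154.7 per 10000, became 150.2 at resolution 0.3, 149.1 without the 10% highest Scrublet scores, 147.4 with clusters of any number of genes named, 172.1 without the 10 most abundant transcripts in the total and 202.1 with free RNA taken away, and was 34.3 as mean UMIs per cell. Its log2 ratio to the other myeloid-like cells, 0.93, stayed above 0 under every alternative run. It was 1.85 at resolution 0.3, 0.88 at 0.8, 1.12 and 1.07 with 10 and 30 components, 0.99 with the 9 genes kept among the variable genes, 1.43 without the highest Scrublet scores, 2.71 with clusters of any number of genes named, 0.86 without the 10 transcripts, 0.53 per cell and 1.04 without free RNA. The cells named macrophage-like numbered 591 to 828 over these settings, and the cause of the spread was not tested. The share of the 9 genes' UMIs in myeloid-like cells, 81.7%, was 83.5% with 30 components, 82.4% after the filter on genes and mitochondrial UMIs, 89.5% without the highest Scrublet scores, 90.1% with clusters of any number of genes named and 81.3% without free RNA.

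Over 8 clusterings and cell filters, added after seeing the data, the sub-cluster highest in *Folr2* kept its *Mrc1* (5.19 to 5.98 on the log2 scale against the other macrophage-like cells), *Lyz2* (2.05 to 2.54) and *Cd14* (-1.57 to -1.35) ratios. In the sub-cluster highest in *Ccr7* the C1q ratio to the macrophage-like cells outside it ran from -3.82 to -1.86. Its *Lyz2* ratio, -0.17, turned to 0.0389 without the highest Scrublet scores and to 0.0944 with clusters of any number of genes named, and the cause was not tested. Depth limits *Mrc1* and *Adgre1*, since most macrophage-like cells had no UMI of either. No paired analysis was possible because the results come from no test and all 4 samples share 1 group and 1 matrix.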
